A study of Mus musculus with 10 samples.

Results

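The transcription factor NRF2, encoded by Nfe2l2, its inhibitor gene Keap1 and 8 genes of enzymes that NRF2 is known to induce were followed in the liver of mice given a high-fat, high-cholesterol diet. The 10 genes were Nfe2l2, Keap1, Nqo1, Gclc, Gclm, Gsr, Txnrd1, Srxn1, Hmox1 and Ephx1, chosen by name with earlier results of these data known. Each was read by the probe set (a group of short oligonucleotides for one transcript) with the highest mean among those annotated to that gene alone. All 10 had such a probe set, of 18193 genes represented on the array, and all 10 passed the filter on low signal that left 11061 genes to test.

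Under unstressed conditions the KEAP1 protein binds NRF2 and directs it to degradation. Oxidants and electrophiles modify KEAP1, and NRF2 then enters the nucleus, pairs with a small MAF protein and binds antioxidant response elements near its target genes. In liver these targets supply glutathione, keep thioredoxin and glutathione reduced, break down heme and detoxify quinones and epoxides. NRF2 is controlled largely at the protein level, which transcript arrays do not measure.

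All mice were female and came from a pair of inbred strains, C57BL/6J, called B6 here, and DBA/2J, called D2. Their age is not given in the sources used here. The diet had been fed for 0, 1, 4, 12 or 21 weeks when livers were collected. Each of the 10 Affymetrix arrays read pooled liver RNA of 5 mice, with 1 week 0 array and 4 fed arrays in each strain, and time on the diet ran together with age. A pool hides the spread between its mice, the weeks served as replicates, and all p-values measure the spread between these arrays. Values are log2 of the quantile-normalised signal plus a pseudocount of 1.05, so 1 unit is a factor of 2, and differences of low signals are understated. The trimmed mean signal before normalisation ran from 56.2 to 89.1 and was lowest in both week 0 arrays. Summed signal of 12 hepatocyte markers was 67056 to 69068 at week 0, 64246 to 67037 in fed B6 arrays and 61074 to 66688 in fed D2 arrays. In fed minus week 0, 11 of the 12 were below 0 (median −0.06), against 48.1% of all genes. None of the 12 passed that test, which 0.651% of all genes did, or the test between strains, which 7.98% did. In bulk liver, fewer cells of a type and less RNA per cell cannot be told apart.

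The stretches of promoter that hold an antioxidant response element motif are shown because they are the DNA letters that NRF2 is known to read in genes of this kind. RefSeq promoter windows, from 250 bases before to 50 after the start, were at hand for 7 of the 10 genes (9 windows, build GRCm38.p6). Capitals mark a match to the core TGACNNNGC or to TGANTCAGC, searched on both strands.
Nfe2l2, chr2:75704875-75704913, minus strand: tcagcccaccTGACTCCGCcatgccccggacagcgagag
Gclm, chr3:122245403-122245451, plus strand: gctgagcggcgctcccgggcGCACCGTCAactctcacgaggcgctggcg
Txnrd1, chr10:82859094-82859142, plus strand: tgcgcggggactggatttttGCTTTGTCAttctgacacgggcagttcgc
Srxn1, chr2:152105459-152105507, plus strand: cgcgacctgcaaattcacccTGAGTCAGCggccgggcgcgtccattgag
The core TGACNNNGC was in windows of 4 of the 7 genes, against 12.4% of all 32851 windows. A gene was counted if any of its windows matched, while the percentages are of single windows, so the units differ. In Gclm and Txnrd1 it lay on the opposite strand, and in Srxn1 the core match lay after the start and is not among the letters shown. TGANTCAGC, the form shown for Srxn1, was in 1.19% of all windows and in 1 of the 7 genes. Keap1, Nqo1 and Ephx1 held neither motif in these windows. A match describes the letters and is not evidence of binding.

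None of the 10 genes differed between the strains at an adjusted p under 0.05 (limma, Benjamini-Hochberg over 11061 genes), where 7.98% of all genes did. In that comparison, D2 minus B6 with week as a block, 9 of the 10 differences were below 0 and their median was −0.32, while 47.8% of all genes were below 0 and the median over all genes was 0.01. At an unadjusted p under 0.05, 5 of the 10 (Nfe2l2, Nqo1, Gclm, Hmox1 and Ephx1) were lower in D2, against 11.9% of all genes. None of the 10 passed in the comparison of fed with week 0 arrays either, where 0.651% of all genes did. There 9 of the 10 differences were above 0 (median 0.19), against 51.9% of all genes (median 0.01). At an unadjusted p under 0.05, 3 of the 10 (Nfe2l2, Txnrd1 and Ephx1) were higher in fed arrays, against 9.73% of all genes. On the arrays as deposited, overall signal was lowest at week 0. There 4 of the 10 (Nfe2l2, Gclc, Txnrd1 and Ephx1) passed as higher, as did 4949 of the 11066 genes tested.

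**Figure D1:**
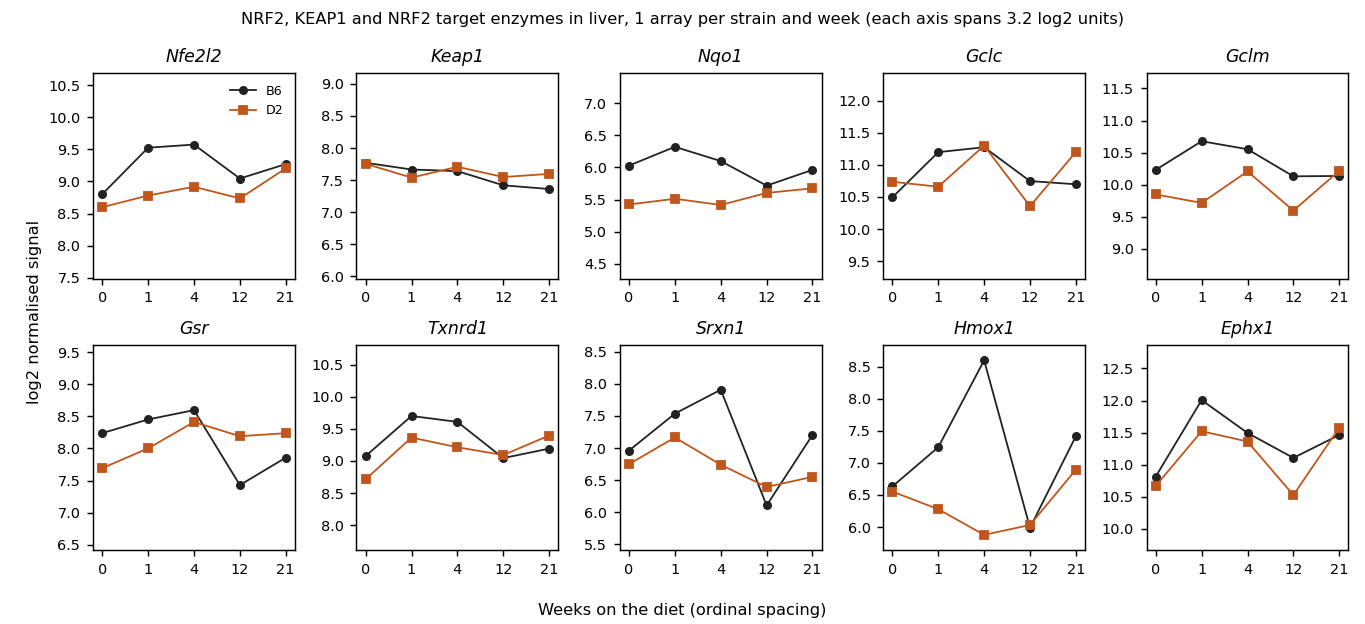
Log2 normalised signal of each gene (vertical axis, 3.2 log2 units in every panel) against weeks on the diet (ordinal spacing), with black circles for B6 and orange squares for D2 and 1 array per point. The 5 D2 arrays of Nqo1 all lie below the 5 B6 arrays, and Hmox1 has its highest point, 8.60, in B6 at week 4.

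Nfe2l2 encodes NRF2 itself. In B6 its signal was 8.80 at week 0 and 9.53, 9.57, 9.05 and 9.27 at weeks 1, 4, 12 and 21. In D2 it was 8.60 at week 0 and then 8.78, 8.92, 8.74 and 9.20. D2 was below B6 at every week, with differences of −0.75 at week 1 and −0.07 at week 21, and the strains overlapped across weeks. D2 below B6 at all 5 weeks was found for 2 of the 10, Nfe2l2 and Nqo1, against 11.2% of all genes. The strain difference was −0.40 ± 0.12 (SE, 5 arrays per strain, limma adjusted p = 0.0806). All 8 fed arrays lay above the week 0 array of their strain, which held for 11.1% of all genes. The fed-minus-week 0 difference was 0.43 ± 0.16 (adjusted p = 0.203), with a 95% interval from 0.08 to 0.78, and 0.81 with the mean over both probe sets (adjusted p = 0.0755). A second, much dimmer probe set of Nfe2l2 read 4.30 in B6 and 3.55 in D2 at week 0 and from 4.52 to 5.81 in the fed arrays.

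Keap1, whose product holds NRF2 in check, varied least of the 10 genes in the strain comparison by its SE. In B6 it was 7.77 at week 0 and then 7.67, 7.64, 7.42 and 7.36 at weeks 1, 4, 12 and 21. In D2 it was 7.75 at week 0 and then 7.54, 7.71, 7.55 and 7.60. All 8 fed arrays lay below week 0, with differences from −0.41 to −0.05, as did 9.94% of all genes. The difference was −0.20 ± 0.11 (adjusted p = 0.388), and it was 0.33 on the arrays as deposited, where the median of all genes was 0.52 higher in the fed arrays. The strain difference of Keap1 was 0.06 ± 0.09 (adjusted p = 0.757), and −0.02 on the arrays as deposited.

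Nqo1 encodes the NAD(P)H quinone dehydrogenase and is among the most used reporters of NRF2 activity. The B6 arrays of weeks 0, 1, 4, 12 and 21 had signals of 6.03, 6.32, 6.10, 5.72 and 5.96. Those of D2 had 5.42, 5.51, 5.42, 5.60 and 5.68. Every D2 array was below every B6 array, a separation seen for 4.13% of all genes. The means were 6.03 ± 0.22 in B6 and 5.53 ± 0.11 in D2 (SD, n = 5 each), a difference of −0.50 ± 0.14 (SE, limma adjusted p = 0.0712) with a 95% interval from −0.83 to −0.17. At week 0, before the diet, D2 minus B6 was −0.61. An exact sign-flip test over the 5 week pairs gave a two-sided p of 0.0625 for Nqo1 and for Nfe2l2, the smallest that 5 pairs allow (0.25 after adjustment over the 10 genes). Without week as a block Nqo1 passed (limma adjusted p = 0.0373). In that fit the share of all genes that passed was somewhat below the 7.98% found with the block. Fed arrays differed from week 0 by 0.06 ± 0.16, with 5 of 8 above.

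Gclc and Gclm encode the catalytic and modifier subunits of glutamate-cysteine ligase, which catalyses the first step of glutathione synthesis. Gclm in B6 was 10.23, 10.68, 10.55, 10.13 and 10.14 at weeks 0, 1, 4, 12 and 21, and in D2 it was 9.85, 9.72, 10.21, 9.60 and 10.22. D2 was below B6 at 4 of 5 weeks, with −0.96 at week 1. The strain difference was −0.43 ± 0.13 (adjusted p = 0.0942), and a second Gclm probe set had D2 below B6 at all 5 weeks, with a mean difference of −0.31. Gclc in B6 was 10.49, 11.20, 11.27, 10.75 and 10.70, and in D2 it was 10.74, 10.66, 11.30, 10.36 and 11.20. Gclc was above week 0 in all 4 fed B6 arrays, as were 26.7% of all genes and 3 of the 10, and in 2 of 4 fed D2 arrays. Its strain difference was −0.03 ± 0.15 (adjusted p = 0.924) by this probe set and −0.37 by a second one. The fed-minus-week 0 differences were 0.31 ± 0.24 for Gclc and 0.11 ± 0.19 for Gclm (adjusted p = 0.519 and 0.784).

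Gsr encodes glutathione reductase, which returns oxidised glutathione to its reduced form, and its probe sets disagreed between the strains. By the probe set with the higher mean, B6 was 8.24, 8.45, 8.60, 7.43 and 7.86 at weeks 0, 1, 4, 12 and 21. D2 was 7.69, 8.0, 8.41, 8.19 and 8.24, so that B6 was higher at the first 3 time points and D2 at the last 2. The difference over all weeks was −0.01 ± 0.19 (adjusted p = 0.987). By the other probe set, B6 was 8.36, 8.63, 8.77, 7.99 and 8.24 and D2 was 7.32, 7.80, 7.68, 7.42 and 7.61. There every D2 array was below every B6 array, with means of 8.40 ± 0.31 and 7.57 ± 0.20 (SD, n = 5 each). When all 22518 probe sets above the filter were tested, a fit added after seeing the data, this one passed with −0.83 ± 0.11 (limma adjusted p = 0.00325), as did 6.83% of probe sets. It passed with each array left out in turn (limma adjusted p from 0.00989 to 0.0143), in fits that all read the same probe set. Why the 2 probe sets of Gsr differ was not tested. The second one was the 1 of 20 probe sets of the 10 genes that passed between the strains. Fed arrays differed from week 0 by 0.18 ± 0.27 for the first probe set (adjusted p = 0.755), with −0.15 ± 0.38 in B6 and 0.52 ± 0.38 in D2. The difference of these responses was 0.67 ± 0.53 (adjusted p = 0.92).

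**Figure D2:**
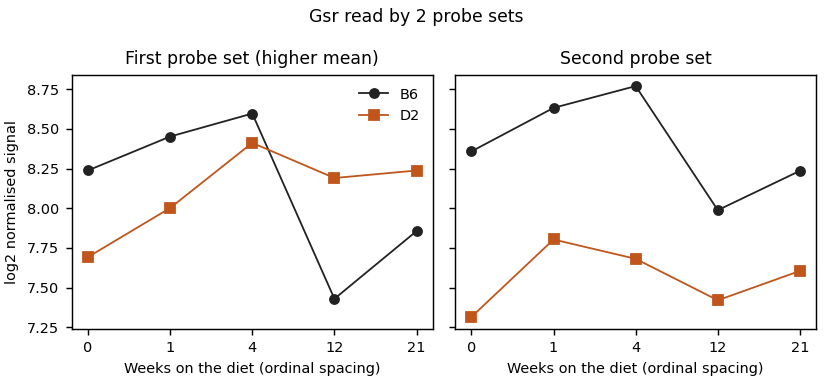
Log2 normalised signal of the 2 Gsr probe sets (one panel each, shared vertical axis) against weeks on the diet (ordinal spacing), with 1 array per point. The strains cross between weeks 4 and 12 for the first probe set, and for the second all D2 arrays (7.32 to 7.80) lie below all B6 arrays (7.99 to 8.77).

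Txnrd1 encodes cytosolic thioredoxin reductase. Its signal in B6 was 9.08, 9.70, 9.61, 9.04 and 9.19 at weeks 0, 1, 4, 12 and 21, and in D2 it was 8.72, 9.36, 9.21, 9.09 and 9.40. It was above week 0 in 7 of 8 fed arrays, with B6 week 12 the exception. The fed-minus-week 0 difference was 0.43 ± 0.17 (adjusted p = 0.224), and in D2 alone it was 0.55 ± 0.24 (adjusted p = 0.43). The dimmer probe sets of Txnrd1 gave −0.09 and −0.36, and the mean over all 3 gave −0.01, so the direction depends on the probe set. Between strains Txnrd1 differed by −0.17 ± 0.11 (adjusted p = 0.402).

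Srxn1 encodes sulfiredoxin, which repairs over-oxidised peroxiredoxins. Its signal in B6 was 6.96, 7.54, 7.91, 6.10 and 7.20 at weeks 0, 1, 4, 12 and 21. In D2 it was 6.75, 7.16, 6.74, 6.39 and 6.55. B6 week 4 was the highest array and B6 week 12 the lowest, a span of B6 that contained all D2 values. The strain difference was −0.42 ± 0.19 (adjusted p = 0.224), against −0.30, −0.18 and 0.06 by the other 3 Srxn1 probe sets and −0.24 without either array of week 4. Fed arrays differed from week 0 by 0.10 ± 0.37 (adjusted p = 0.917), with 4 of 8 above. Its slope on the log2 of the week over the 8 fed arrays was −0.19 ± 0.09 per doubling of time (adjusted p = 0.972). All 10 slopes were below 0 (9 on the arrays as deposited), with a median of −0.05, while 50.4% of all genes were below 0. No gene of the 11061 passed the slope test in limma (0%). At an unadjusted p under 0.05 there were 523 genes, or 4.73% of all genes, none of the 10 among them.

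Hmox1 encodes heme oxygenase 1, which cleaves heme and is abundant in macrophages that clear red cells. In B6 it was 6.63 at week 0 and 7.24, 8.60, 5.99 and 7.42 at weeks 1, 4, 12 and 21. In D2 it was 6.55 at week 0 and then 6.28, 5.88, 6.03 and 6.89. The gap of D2 from B6 was −0.08 before the diet, −2.72 by week 4 and 0.04 by week 12. The strain difference was −0.85 ± 0.36 (adjusted p = 0.204), and −0.38 without either array of week 4. Within strains the fed-minus-week 0 differences were 0.68 ± 0.74 in B6 and −0.28 ± 0.74 in D2, and the difference of responses, −0.96 ± 1.04, did not pass (adjusted p = 0.935). Its 95% interval, from −3.30 to 1.37, covers a wide range in both directions.

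Over the 10 arrays the gene whose signal followed Hmox1 most closely among all tested genes was Adgre1 (Pearson r = 0.97). Pdcd10 and Scamp2 came next (r = 0.96 for each). These values are a description over 10 arrays that share strain and week. Adgre1 encodes a surface receptor of macrophages. Adgre1 was 6.89, 7.71, 8.48, 6.60 and 7.46 in B6 and 6.96, 7.02, 6.58, 6.60 and 7.13 in D2. The summed signal of 25 macrophage markers was 3963 to 4466 at week 0, 4231 to 23487 in fed B6 arrays and 3979 to 5772 in fed D2 arrays, with B6 week 4 the highest. Of all 25 macrophage markers, 24 were above 0 in fed minus week 0 for B6 (median 1.26), against 51.6% of all genes tested. The exception was Trem2, 1 of the 3 markers under the signal filter, at 4.63 at week 0 and 3.01 on average in fed B6 arrays. Of the 22 markers tested, none passed in that comparison, where 0.118% of all genes did. As lower in D2 than in B6 over all weeks, 3 passed (Cd52, Gpnmb and Fcgr1), against 4.08% of all genes. The markers Clec4f, Adgre1 and Cd68 were detected on every array, with no value under 5.22, and 1 of the 25 markers was below the pseudocount on 1 array, D2 week 1. Other cell type lists also differed in B6 at week 4 from B6 at week 0. Summed signal there was 6681 against 3163 for 18 stellate cell and matrix markers, 1203 against 233 for 12 lymphocyte markers and 2558 against 1139 for 9 bile duct markers. The median change of the single markers was 1.19 for the stellate cell and matrix list and 1.315 for the lymphocyte list. For the bile duct list it was −0.27, so its higher sum was not shared by the typical marker. The part of macrophages or of these other cells in the Hmox1 values was not tested.

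**Figure D3:**
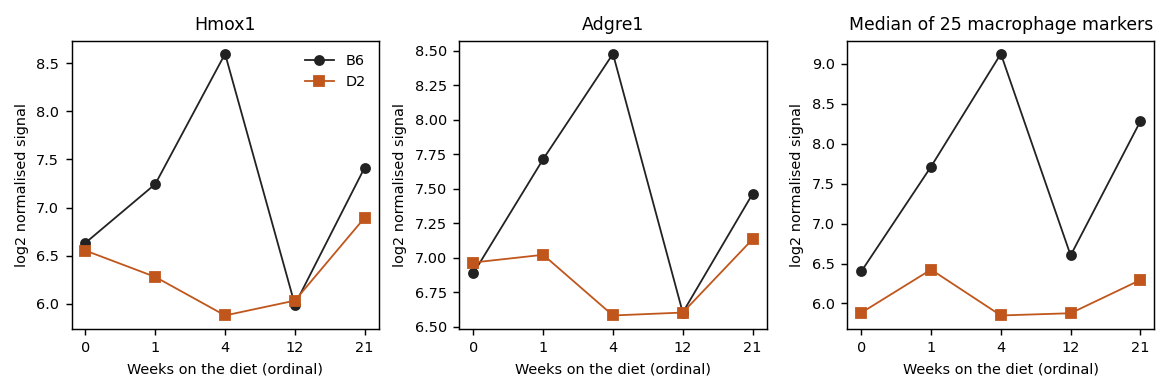
Log2 normalised signal of Hmox1, of Adgre1 and of the median of 25 macrophage markers (a panel each, with its own vertical axis) against weeks on the diet (ordinal spacing), 1 array per point. In each panel B6 week 4 is the highest point, at 8.60, 8.48 and 9.13, and the D2 line stays within a narrower range than the B6 line.

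Ephx1 encodes microsomal epoxide hydrolase, a detoxification enzyme of hepatocytes. The B6 arrays of weeks 0, 1, 4, 12 and 21 read 10.82, 12.01, 11.49, 11.11 and 11.46, and the D2 arrays read 10.67, 11.52, 11.36, 10.53 and 11.58. It was above week 0 in 7 of 8 fed arrays, by up to 1.19 in B6 at week 1, and below it only in D2 at week 12. The fed-minus-week 0 difference was 0.64 ± 0.26 (adjusted p = 0.247), the largest estimate of the 10 genes, with a 95% interval from 0.06 to 1.22. Between strains it was −0.25 ± 0.11 (adjusted p = 0.204).

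**Figure D4:**
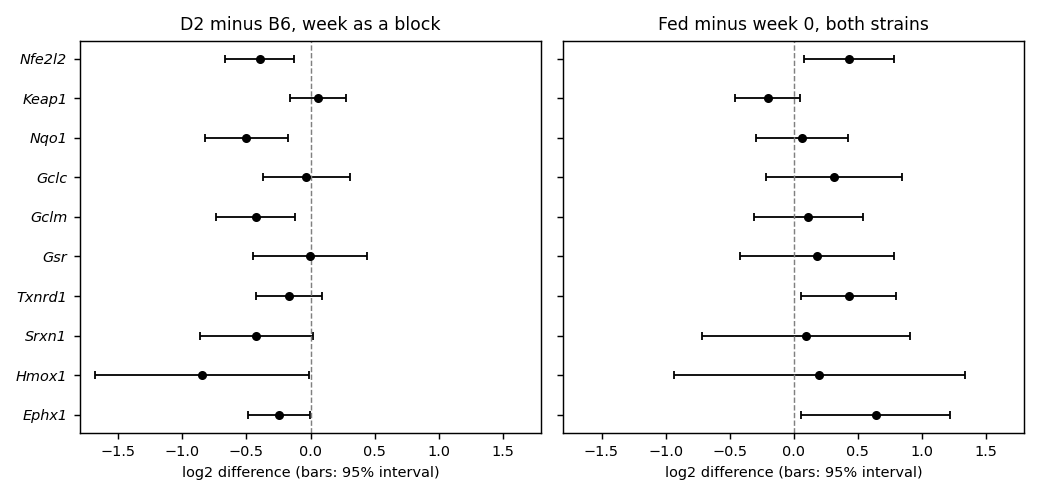
Estimated log2 differences (horizontal axis) of the 10 genes with 95% intervals from limma, for D2 minus B6 with week as a block (left) and for fed minus week 0 over both strains (right). The intervals of Nfe2l2, Nqo1, Gclm, Hmox1 and Ephx1 lie below 0 on the left and those of Nfe2l2, Txnrd1 and Ephx1 above 0 on the right, before adjustment for the number of genes tested.

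Read array by array, the genes stood highest against week 0 in B6 at weeks 1 and 4. In B6 at week 1, 9 of 10 were above week 0 (median 0.59), against 52.2% of all genes. By 0.5 or more, 6 were so (Nfe2l2, Gclc, Txnrd1, Srxn1, Hmox1 and Ephx1), against 16.1% of all genes. In B6 at week 4 the same counts were 9 and 6, against 48.8% and 20% of all genes. The 6 were the same genes, and the median of the 10 was 0.61. At week 12 the B6 median was −0.21, and Gsr, Srxn1 and Hmox1 were below week 0 by 0.5 or more, against 11.2% of all genes. At week 21 the B6 median was 0.16. In D2 the medians were 0.14, 0.34, −0.18 and 0.42 at weeks 1, 4, 12 and 21, so week 12 was the lowest in both strains. At week 21 in D2, 4 genes (Nfe2l2, Gsr, Txnrd1 and Ephx1) were above week 0 by 0.5 or more, against 12.5% of all genes. All 4 fed arrays of a strain were set against the same week 0 array, and none of these single-array differences can be tested.

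**Figure D5:**
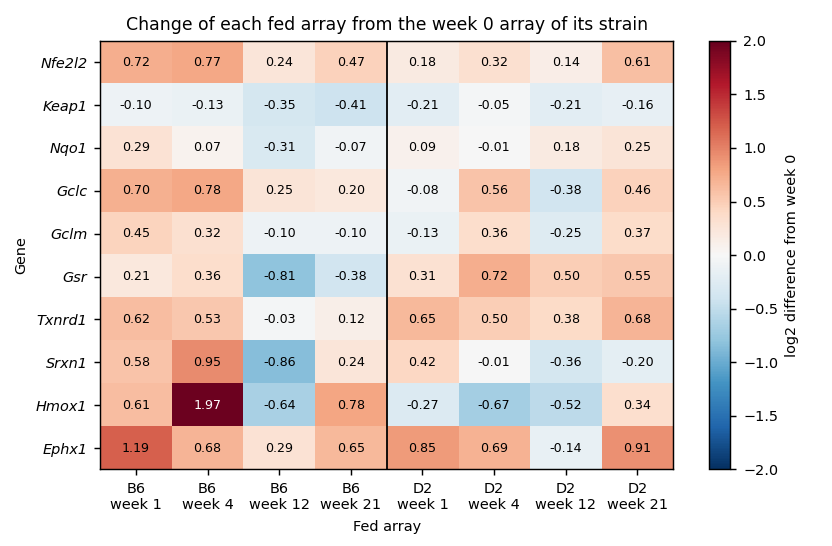
Difference of each fed array from the week 0 array of its strain on the log2 scale, with genes in rows, fed arrays in columns, and the value printed in each cell (red above 0, blue below). The deepest red is Hmox1 in B6 at week 4 (1.97), Keap1 is below 0 in all 8 columns and Nfe2l2 above 0 in all 8.

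The differences between the strains week by week use the same arrays. The median difference of D2 from B6 over the 10 genes was −0.21, −0.51, −0.37, −0.04 and 0.10, in order of the weeks from 0 to 21. At week 1 all 10 genes were lower in D2, against 49.3% of all genes, and at week 21 this was true of 4, against 49.4%. Within each strain separately, no gene of the 10 passed in fed against week 0, where 0.118% of all genes passed in B6 and 0.118% in D2. At an unadjusted p under 0.05, Nfe2l2 was higher in fed B6 arrays (0.55 ± 0.23, adjusted p = 0.376), against 7.88% of all genes, and Txnrd1 in fed D2 arrays, against 6.65%. The test of the difference of the responses called 1 gene in all, Clcn5 (0.00904%), and none of the 10, of which none had an unadjusted p under 0.05, against 6.09% of all genes.

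Pairs among the 10 genes correlated across arrays, which is given as a description only, since all pairs share the same 10 arrays. Gclm and Nfe2l2 had r = 0.84, and many other genes were closer to either of them, Nfe2l2 ranking 29 among all genes for Gclm and Gclm ranking 133 for Nfe2l2. For Nqo1, Hmox1 and Keap1 the closest of the 10 ranked 310, 317 and 839, and Keap1 had r above 0.5 with none of them. Txnrd1 and Ephx1 had r = 0.84, and Srxn1 and Hmox1 had r = 0.82. The gene closest to Gclm of all was Aox1, an aldehyde oxidase gene that is also a known NRF2 target (r = 0.93), followed by Slc39a4 and Tia1. The closest genes to Nfe2l2 were Tmod3 (r = 0.97), Plscr1 and Abcg5. Those closest to the other genes were Sh2d3c for Keap1, Erdr1 for Nqo1, Nt5c3 for Gclc, Arpc4 for Gsr, Kit for Txnrd1, Nid1 for Srxn1 and Ifi27l2b for Ephx1 (r from 0.88 to 0.96).

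Other known NRF2 targets were listed separately, 22 genes of which 16 were tested. Between the strains 3 were lower and none higher in D2, where 4.08% of all genes were lower. Of the 16 differences 13 were below 0, against 47.8% of all genes, with a median of −0.29. The 3 that passed were Pir, Ugdh and Abcc4. Pir (pirin) had D2 minus B6 of −0.47 ± 0.10 (limma adjusted p = 0.0262). Ugdh (UDP-glucose dehydrogenase, which makes the sugar donor for glucuronidation) had −0.79 ± 0.16 (adjusted p = 0.0266). Abcc4 (an efflux transporter) had −1.03 ± 0.22 (adjusted p = 0.0278). All 3 calls were lost without either array of week 1, 4 or 12 (adjusted p from 0.0636 to 0.0974), and those of Pir and Abcc4 also without either array of week 21 and without week as a block (adjusted p = 0.0873 and 0.0842). Ugdh and Abcc4 also missed in limma fits without trend (adjusted p = 0.0606 and 0.0523), and Pir on the arrays as deposited (adjusted p = 0.0559). In fed against week 0, 1 of 16 rose and none fell, where 0.416% of all genes rose. Of the 16 differences 14 were above 0, against 51.9% of all genes, with a median of 0.12. The gene that passed was Blvrb, biliverdin reductase B, at 9.34 and 9.07 in the B6 and D2 week 0 arrays. In fed arrays it was 10.04 ± 0.24 (SD, n = 8), a change of 0.84 ± 0.13 (limma adjusted p = 0.0205). It did not pass without the B6 week 0 array, the D2 week 0 array or the D2 week 4 array (adjusted p = 0.165, 0.151 and 0.055).

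The counts for the further lists can be read against the 7.98% of all genes that passed between strains and the 0.651% that passed with feeding. Among 11 tested partners and regulators of NRF2, none passed between the strains and 1 rose with feeding. It was Maff, a small MAF protein of the kind with which NRF2 pairs on DNA, at 4.60 and 4.51 at week 0 and 5.97 ± 0.26 in fed arrays (1.42 ± 0.20, adjusted p = 0.0154). It did not pass when the B6 or the D2 array of week 0 was left out (adjusted p = 0.0954 and 0.151). Of 19 tested genes of glutathione and thioredoxin recycling, 2 were lower in D2 and none higher, namely Gpx3, a secreted glutathione peroxidase (−1.50 ± 0.19, adjusted p = 0.00294), and Prdx3, a mitochondrial peroxiredoxin (−0.38 ± 0.09, adjusted p = 0.0453). Gpx3 passed with each of the 10 arrays left out, while Prdx3 passed in none of those fits and also missed without week as a block (adjusted p = 0.0503). In the same list Ggct, which degrades gamma-glutamyl peptides, fell with feeding by 0.97 ± 0.15 on the log2 scale (adjusted p = 0.018), a call lost without either week 0 array. It was −0.58 with the mean over its probe sets and −0.43 on the arrays as deposited, and passed in neither (adjusted p = 0.413 and 0.105).

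Of 19 tested glutathione S-transferase genes, 1 was higher in D2 (Mgst3, 0.98 ± 0.20) and 4 were lower (Gsta2, −1.84 ± 0.34; Gsto1, −0.53 ± 0.10; Gstm3, −1.38 ± 0.35; Gstm1, −0.34 ± 0.08), with adjusted p from 0.0165 to 0.0494. Gstm1 and Gstm3 have close relatives in the genome, and their probes may read more than one of them, and Gstm1, the last of these by adjusted p, was named after its values were seen. Both missed without week as a block (adjusted p = 0.384 and 0.3), and of these 5 calls all but that of Gsta2 were lost in at least 6 of the 10 fits that left out an array, and that of Gsta2 in 4. With the mean over its probe sets Mgst3 was 0.51 (adjusted p = 0.164), and as deposited it also missed (adjusted p = 0.0559). Of 14 tested genes of heme handling, Alad, an enzyme of heme synthesis, was higher in D2 by 1.32 ± 0.11 (adjusted p = 0.000395) and no other passed. The list of genes controlled by the receptors CAR and AHR, which also induce some NRF2 targets, had 2 of 12 lower in D2 and none higher, Cyp2b10 with −1.19 ± 0.16 (adjusted p = 0.00397) and Ahr itself with −0.50 ± 0.10 (adjusted p = 0.0244). Without week as a block Cyp2b10 missed the threshold (adjusted p = 0.402), and of the 10 fits that left out an array Ahr passed only in those without an array of week 1. With the mean over its probe sets Ahr was −0.23 (adjusted p = 0.282). Cyp2b10, the standard CAR target, fell with feeding by 2.75 ± 0.51 on the log2 scale (adjusted p = 0.0427). Of the 10 fits that left out an array, that call held only without B6 week 1, B6 week 4 or D2 week 1. In B6 alone 1 of the 12, Cyp1b1, passed as higher in fed arrays (adjusted p = 0.0328), but its single week 0 array was near background (0.64), so the size of the difference is not settled. It was 3.92 here, 2.45 with a floor at the 25th percentile (adjusted p = 0.138) and 1.23 with a pseudocount of 16 (adjusted p = 0.184), and the call was also lost without B6 week 21 or D2 week 1, 4 or 21.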

How the data were processed

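The deposited values are signal intensity on a linear scale, 1 per probe set and array, which the authors computed with GCOS, per the submitters' processing notes; its version and scaling are not given in the sources used here. RNA was extracted with Trizol, per the labels' protocols. Of 45101 probe sets, 64 controls were left out, 34945 had 1 gene symbol in the platform annotation, 932 had several and 9160 had none. Arrays were quantile normalised, since their trimmed means differed by a ratio of 1.59, and genes were kept above the 50th percentile of probe-set means (3.74). Fits used limma 3.58.1 in R 4.3.3 (lmFit, eBayes with trend, Benjamini-Hochberg, threshold 0.05).

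The 6 comparisons were D2 minus B6 with week as a block (4 residual degrees of freedom), fed minus week 0 with strain as a term (7), the same within each strain and the difference of those responses (6), and the slope on log2(week) over fed arrays (5). The block rests on the labels, which give every week to a pool of each strain. Deviations from the strain means correlated within weeks by 0.02 to 0.38. Comparisons share arrays and are not independent. The members and gene lists were chosen with earlier results of these data known. All 10 members are named; from other lists, up to 4 genes per list and comparison that passed are named by lowest adjusted p, with Gstm1 as an exception, and the closest genes are those of highest correlation. The fits were run on simulated data with planted differences, to check that these were estimated at about their size. Noise there was independent for each gene and array, so that check does not cover spread shared within a week or between genes. The number of arrays limits the precision. Alternatives were other scalings, pseudocounts, filters, probe-set choices, variance models and designs, and each array left out.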

Additional observations from a re-analysis of the deposited data

How the results depend on the processing

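On the arrays as deposited the median gene was 0.52 higher in fed arrays. Of 11066 genes tested there, 4990 passed in fed against week 0 (4949 higher, 41 lower, against 46 and 26 after quantile normalisation). In B6 1946 passed and in D2 45, and between strains 208 were higher and 403 lower in D2 (432 and 451). There 4 of the 10 genes passed as higher (Nfe2l2, Txnrd1, Ephx1 and Gclc) and 1 in B6, but the median of the 10 relative to all genes was 0.17, against 0.18 after quantile normalisation. Keap1 turned to −0.021 (strain) and 0.33 (fed). With arrays centred on their median, 313 genes (276 higher, 37 lower) passed in fed against week 0, none of the 10 among them, and the strain differences of Gclc and Gsr turned to 0.073 and 0.022. With a pseudocount of 16, counts were 0 in B6, 2 in D2 and 0 for the difference of responses. A floor gave 3 in B6, no filter 8 in D2, and fits without trend 33 in B6, 38 in D2 and 0 for the difference of responses, which was also 0 with the mean over probe sets or without suffixed probe sets. The mean over probe sets turned Txnrd1 to −0.0076 (fed), its other probe sets gave −0.092 and −0.36, and one of Srxn1 gave 0.058 (strain). Testing every probe set called 1538 between strains and 140 in fed against week 0. Without the replicate block (week not a term) 1 of the 10, Nqo1, passed between strains. Of all genes, somewhat fewer passed there than the 883 with the block, so passing in that fit was not particular to Nqo1. The cause of these changes was not tested.

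With each array left out, calls ranged from 386 to 715 (strain), 14 to 95 (fed), 0 to 22 (B6), 6 to 21 (D2), 0 to 1 (difference of responses) and 0 to 0 (slope), and 0 of the 10 genes passed in any of these. The strain difference of Gsr ranged from −0.20 to 0.13 (0.13 also on the fed arrays only), above 0 without week 0, 1 or 4, and that of Gclc from −0.17 to 0.095, above 0 without week 1 or 12. Fed minus week 0 ranged from −0.037 to 0.27 for Srxn1 and from −0.28 to 0.68 for Hmox1, below 0 without the B6 array of week 0 or 4. It was −0.0041 for Nqo1 and −0.15 for Gsr without D2 week 0, and reached 0.13 and 0.52.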
